A study of Mus musculus with 6 samples.

Results

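HNRNPA2B1 peaks were listed at 124 autosomal sites in C2C12 myoblasts that were in neither list of differentiated C2C12 cells. They were chosen by the presence of peaks. Peaks on chromosomes 1 to 19 were kept, 3 peak-dense loci on chromosomes 7 and 19 were left out, and touching or overlapping peaks of all 4 lists were merged by strand into 866 regions. A region was kept as myoblast-only when at least 1 C2C12 list and no differentiated C2C12 list had a peak in it. These 124 regions were 14.3% of the 866, and 65 of them, 7.51% of the 866, had a peak in both C2C12 replicates. Both percentages only describe the rule, since the presence of peaks is what it used. The lists begin at −log10 p of 5, whereas the methods designate peaks as significant beyond 8 after correction for multiple tests. With 8 as the limit in every list, 25 regions met the rule, 10 of them in both C2C12 replicates, and 21 of the 25 were among the 124. The 124 sites are therefore listed sites, most of which lie below that limit. Positions are given in the mouse build mm9. Without the limits on chromosomes and loci the 4 lists merged into 1015 regions.

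All libraries came from C2C12, mouse muscle precursor cells of an established line. They divide as single myoblasts and fuse into multinucleated myotubes in low serum. The series held 6 samples, 3 for each state. For each state there were 2 HNRNPA2B1 immunoprecipitation (IP) libraries, replicates A and B, and 1 listed input sample. Myoblasts were grown in medium with 20% fetal bovine serum, and differentiated cells were kept in 5% horse serum with an insulin, transferrin and selenium supplement for 8 to 10 days per the labels (a shorter time is given in the methods). Both states received the same antibody and the same crosslinking. The labels name no genetic change in either. The lists came without expression values, so the differentiated state was not checked against muscle markers.

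HNRNPA2B1 belongs to the heterogeneous nuclear ribonucleoproteins, abundant nuclear proteins that coat new transcripts. It is known for roles in alternative splicing, in the transport of RNA to parts of the cell and in the control of its own transcript. In enhanced crosslinking and immunoprecipitation (eCLIP), UV light links the protein to the RNA beneath it, and short RNA stretches with more reads in the IP than in a size-matched input are listed as peaks. A site can therefore enter or leave a list with the level of its RNA as well as with binding, and the part of RNA level in the sites below was not tested. The same holds for sequencing depth, which the lists do not give.

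The lists of the differentiated cells were the longer ones. Under the same limits A held 723 peaks and B 605, against 228 and 252 in C2C12 A and B. The myoblast-only regions took 120 of the 228 peaks in C2C12 replicate A (52.6%) and 119 of the 252 in replicate B (47.2%). Of the 208 regions with a C2C12 peak, 59.6% had no differentiated peak (95% Wilson interval 52.8 to 66.1). Among the 119 regions with a peak in both C2C12 replicates the share was 54.6% (45.7 to 63.3). Intervals here and below cover counting error over regions only, and regions of one library are not replicates of a state. With 2 libraries per state, no test of the difference between states was made on values that the rule had used.

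Every myoblast-only region with −log10 p of 8 or more in a C2C12 list was also in the other, where 5 was enough. There were 21 such regions, and 8 of them reached 8 in both lists. The rest were split. Of the 124, 65 were in both C2C12 lists (52.4%, 95% Wilson interval 43.7 to 61.0), 28 were in replicate A only and 31 in replicate B only. For the 84 regions found in both states, 64.3% (53.6 to 73.7) were in both C2C12 lists. For the 658 regions found only in differentiated C2C12, 25.7% (22.5 to 29.2) were in both differentiated lists. These shares are not on an equal footing, and their differences were not tested. The differentiated lists were longer, and regions of both states held a median of 5.00 peaks against 2.00 for the myoblast-only regions. In all 65 regions of both replicates a peak of A overlapped a peak of B, by a median of 65.0 nt.

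Fold enrichment at the shared sites was much alike in the replicates. Over these 65 regions the best peak, the one with the highest −log10 p, differed in log2 fold enrichment over input by a median of 0.18, and 57 regions differed by less than 0.5. Spearman's rho across regions was 0.94 for log2 fold enrichment and 0.47 for −log10 p. For the 54 both-state regions with a peak in both C2C12 lists, rho was 0.87 and 0.85. Their median difference in log2 fold enrichment was 0.14. The myoblast-only sites thus stood apart in the lower rho of −log10 p. All of these are descriptions over regions that share their libraries. The methods describe an input for each replicate, while the labels list 1 input sample for each state, so whether the 2 lists share an input is not known. Among the 65 myoblast-only regions the largest difference was at chr10:110920200-110920370 on the plus strand, with log2 fold enrichments of 4.59 in A and 3.25 in B. It was followed by chr10:90620956-90621034 on the minus strand, with 4.11 and 2.81. Replicate A had the higher −log10 p in 35 of the 65 regions and replicate B in 30.

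**Figure D1:**
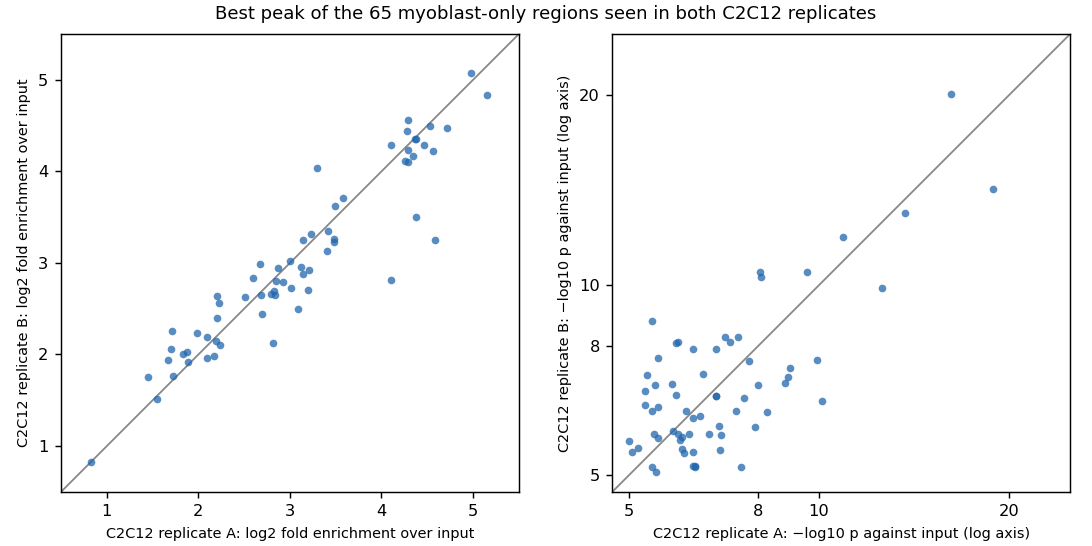
Log2 fold enrichment (left) and −log10 p on log axes (right) of the best peak in C2C12 replicate A (x axis) and replicate B (y axis), with 1 point for each of the 65 myoblast-only regions seen in both and a grey line of equality. Fold enrichments lie close to the line (rho 0.94), while −log10 p values scatter widely around it (rho 0.47).

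Most myoblast-only sites were scored close to the limit of the lists, which begin at −log10 p of 5. In C2C12 replicate A the best peaks of 93 regions had a median −log10 p of 6.01 (quartiles 5.43 and 7.08, highest 18.9). In replicate B the 96 regions had a median of 6.02 (quartiles 5.47 and 7.02, highest 20.1). In the same lists the regions found in both states had medians of 7.11 over 68 regions and 6.88 over 70, with upper quartiles of 9.06 and 9.10 and a highest value of 400, where the scale of the lists ends. No myoblast-only peak was listed at 400. A −log10 p of at least 8 was reached by 16.1% and 14.6% of the myoblast-only regions and by 32.4% and 32.9% of the regions found in both states. These scores come from the same comparison of IP with input that placed a peak in a list, so they are descriptions.

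Median fold enrichment at these sites was slightly above that at sites of both states. The median log2 fold enrichment was 2.97 in A (quartiles 2.24 and 4.03) and 2.93 in B (2.55 and 4.05), and the range was 0.83 to 5.15 and 0.83 to 5.08. Regions found in both states had medians of 2.82 and 2.76. A log2 fold enrichment of at least 3 was reached by 49.5% and 45.8% of the myoblast-only regions. For regions found in both states the shares were 38.2% and 32.9%, and these differences were not tested. Of the 65 regions in both replicates, 15 had 4 or more on the log2 scale in both, 7 were below 2 in both (for 1 of them the value in B rounds to 2.00), and 8 reached −log10 p of at least 8 in both. The lowest values were 0.83 in both replicates, at chr11:19964198-19964256 on the minus strand. In the plot of the 2 scores many points fell on a few rising curves, on which a higher fold enrichment came with a higher −log10 p. In replicate A 20.4% and in replicate B 32.3% of the best peaks shared both scores exactly with another peak of the list.

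**Figure D2:**
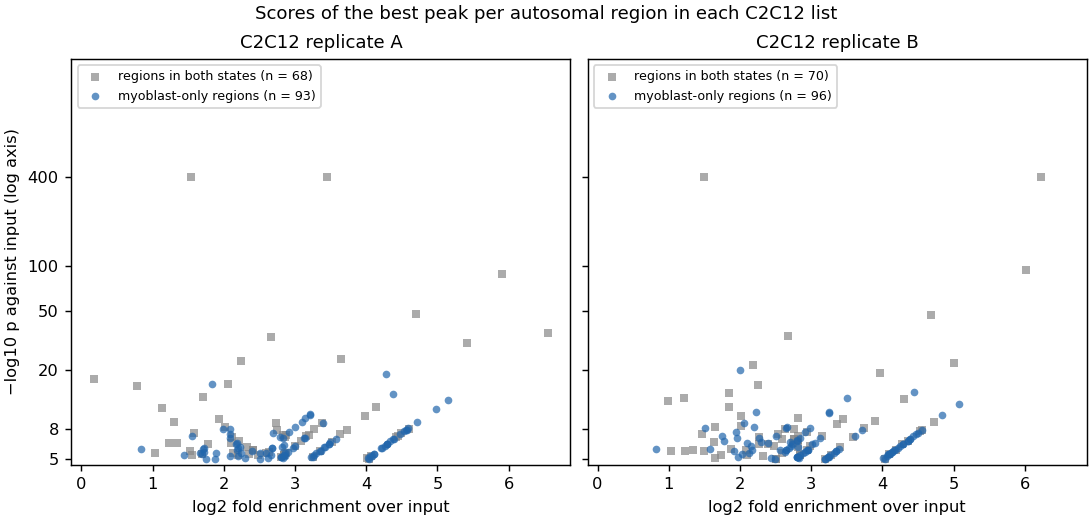
Log2 fold enrichment over input (x axis) and −log10 p (y axis, log scale) of the best peak per autosomal region in C2C12 replicate A (left) and replicate B (right). Myoblast-only regions (blue circles, 93 and 96) sit mostly between −log10 p of 5 and 8, and regions found in both states (grey squares, 68 and 70) reach up to 400.

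Regions seen in 1 replicate only had lower −log10 p still, while their median log2 fold enrichments were 2.87 in A and 3.19 in B. Their median −log10 p was 5.33 for the 28 regions of replicate A and 5.61 for the 31 of replicate B, against 6.35 and 6.54 for the regions seen in both. None of them reached −log10 p of 8. The highest was at chr9:56144097-56144315 on the minus strand, with 7.89 in replicate A and 4.58 as its log2 fold enrichment. It was followed by chr2:72804229-72804293 on the minus strand, with 7.21 and 4.43 in replicate B. The next was chr5:36683504-36683578 on the minus strand, with 6.92 and 2.09 in A. Replicate B then held chr11:30165736-30165841 and chr15:76912426-76912507, both on the minus strand, each with 6.85 and 4.39.

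Regions in both replicates were ordered by the sum of their ranks by −log10 p among the autosomal peaks of each list. The first was chr5:104869749-104869852 on the plus strand, 104 nt, with −log10 p of 16.2 in A and 20.1 in B. Its log2 fold enrichments were modest, at 1.83 and 2.00. A peak of differentiated replicate A lay 113 nt away, enriched by 4.91 on the log2 scale, so this locus had peaks in both states at different positions. A second member, chr5:104869701-104869743, lay beside the first, with log2 fold enrichments of 1.67 and 1.94.

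The next region was chr2:167836656-167836692 on the plus strand, a stretch of 37 nt that held 7 peaks, more than any other myoblast-only region. Its −log10 p was 18.9 and 14.2 and its log2 fold enrichment 4.28 and 4.44. The nearest differentiated peak on its strand was 5074703 nt away. Unlike the first region, it thus had no differentiated peak nearby on its strand.

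Chromosome 5, minus strand, gave 4 of the 10 leading regions within one stretch. At chr5:36614717-36614924 −log10 p was 13.7 and 13.0 and log2 fold enrichment 4.38 and 3.50. At chr5:36614285-36614429 they were 12.6 and 9.89, and 5.15 and 4.84. At chr5:36613959-36614086 they were 9.57 and 10.5, and 3.14 and 3.25. At chr5:36643002-36643083 they were 9.94 and 7.61, and 3.21 and 2.92. These 4 lay 306717 nt or more from a differentiated peak on their strand.

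The remaining leading regions were on other chromosomes or far along chromosome 5. At chr11:106642781-106642821 on the minus strand, a 41 nt region, log2 fold enrichment was 4.98 and 5.08 (−log10 p 10.9 and 11.9), the highest mean of the 65, and a differentiated peak lay 159 nt away. At chr19:44380589-44380727 on the plus strand it was 1.98 and 2.23 (8.05 and 10.5), with 3 peaks in each replicate. At chr5:108290611-108290636 on the minus strand it was 4.72 and 4.48 (8.99 and 7.39) over 26 nt. The chromosome 10 region with the largest difference between replicates, named above, was also among the 10, with −log10 p of 8.10 and 10.3.

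The 15 regions with log2 fold enrichments of 4 or more in both replicates lay on 10 chromosomes, and 12 of them were over 50 kb from a differentiated peak. Among those not described elsewhere, chr11:30165552-30165732 on the minus strand had 4.53 and 4.50. The 24 nt region chr11:71948999-71949022 on the same strand had 4.38 and 4.35. At chr13:99694069-99694198 and chr15:93375410-93375536, both on the minus strand, the values were 4.34 and 4.17, and 4.47 and 4.29. A further 4 of the 15 were regions of 79 to 96 nt on chromosomes 2, 4 and 19. These were chr2:72804044-72804139 on the minus strand (4.29 and 4.56), chr4:116282731-116282818 and chr4:154583483-154583564 on the minus strand (4.29 and 4.24, 4.11 and 4.29) and chr19:7495269-7495347 on the plus strand (4.26 and 4.11). These 4 were over 50 kb from a differentiated peak on their strand, and those on chromosomes 2 and 19 each had a second myoblast-only region beside them. By contrast, chr1:153205946-153206050 on the plus strand (4.56 and 4.22) lay 191 nt from a differentiated peak whose log2 fold enrichment was 1.65.

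Most myoblast-only sites had no other myoblast-only site within 10 kb, and a minority lay in groups along the genome. A site without another member nearby can still lie beside regions with differentiated peaks. When members on one strand were linked up to 10 kb apart, 50 of the 124 (40.3%) fell into 18 groups of at least 2, and 74 had no other member that close. Linked in the same way, 59.1% of all 866 regions lay in groups, as did 58.1% of the 658 differentiated-only regions and 21 of the 84 regions found in both states, and these shares move with the number of regions in each set. There were 6 groups of 3 or more, with 26 regions in all. When regions of every kind were linked up to 50 kb apart, 4 loci held 30 of the myoblast-only regions (24.2%), and 19 of these 30 were in both replicates. Outside these 4 loci 46 of 94 regions (48.9%) were in both. The 4 loci were singled out after their values had been seen, as those with at least 6 members.

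The locus with the most members was on the minus strand of chromosome 5, chr5:36613680-36686716. It held 10 myoblast-only regions over 73037 nt, 9 of them in both replicates. C2C12 replicate A had 17 peaks here and replicate B had 15, while both differentiated lists had 0. The peaks formed separate patches: 5 regions lay within 1245 nt at its lower end, 3 within 308 nt some way up, and 2 near the upper end. Log2 fold enrichment ran from 1.98 to 5.15 and −log10 p from 5.14 to 13.7. The first patch held the highest values. The nearest differentiated peak on the strand was 263084 nt or more from each of the 10.

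A similar locus lay on the minus strand of chromosome 10, chr10:119876430-119905428. It held 6 myoblast-only regions, 4 of them in both replicates, with 7 peaks in A and 6 in B and 0 in either differentiated list. Log2 fold enrichment ran from 1.51 to 4.29 and −log10 p from 5.03 to 8.13. At chr10:119900299-119900368 log2 fold enrichment was 4.29 and 4.10, and at the other 5 regions it was at most 2.64. The nearest differentiated peak was 3092496 nt or more away from each of the 6.

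The other pair of loci mixed both states. On the minus strand of chromosome 15, chr15:53018103-53173400 held 8 myoblast-only regions, 6 regions found in both states and 25 found only in differentiated C2C12. The C2C12 lists had 11 peaks each, and the differentiated lists had 11 in A and 32 in B. The 8 myoblast-only regions lay between 83 and 4636 nt from a differentiated peak, with log2 fold enrichments of 1.45 to 4.07. The strongest by −log10 p was chr15:53110837-53110928, with 7.43 and 8.27. The differentiated peaks of this locus had a median log2 fold enrichment of 1.85. In the plot of the loci its myoblast-only regions lie between differentiated peaks and do not fill a stretch of their own. The others in both replicates were chr15:53101962-53102035, with log2 fold enrichments of 3.48 and 3.23, chr15:53127675-53127780, with 1.45 and 1.75, and chr15:53139582-53139638, with 2.51 and 2.63.

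On the plus strand of chromosome 4, chr4:126704992-126712042 packed 6 myoblast-only regions, 2 regions of both states and 3 differentiated-only regions into 7051 nt. C2C12 had 6 and 7 peaks and differentiated C2C12 had 6 and 1. Only 2 of the 6 myoblast-only regions were in both replicates. These were chr4:126709466-126709552, with log2 fold enrichments of 2.19 and 2.15, and chr4:126711926-126712042, with 2.24 and 2.10. The others were each in 1 list, with −log10 p of 5.00 to 5.85, close to the limit.

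**Figure D3:**
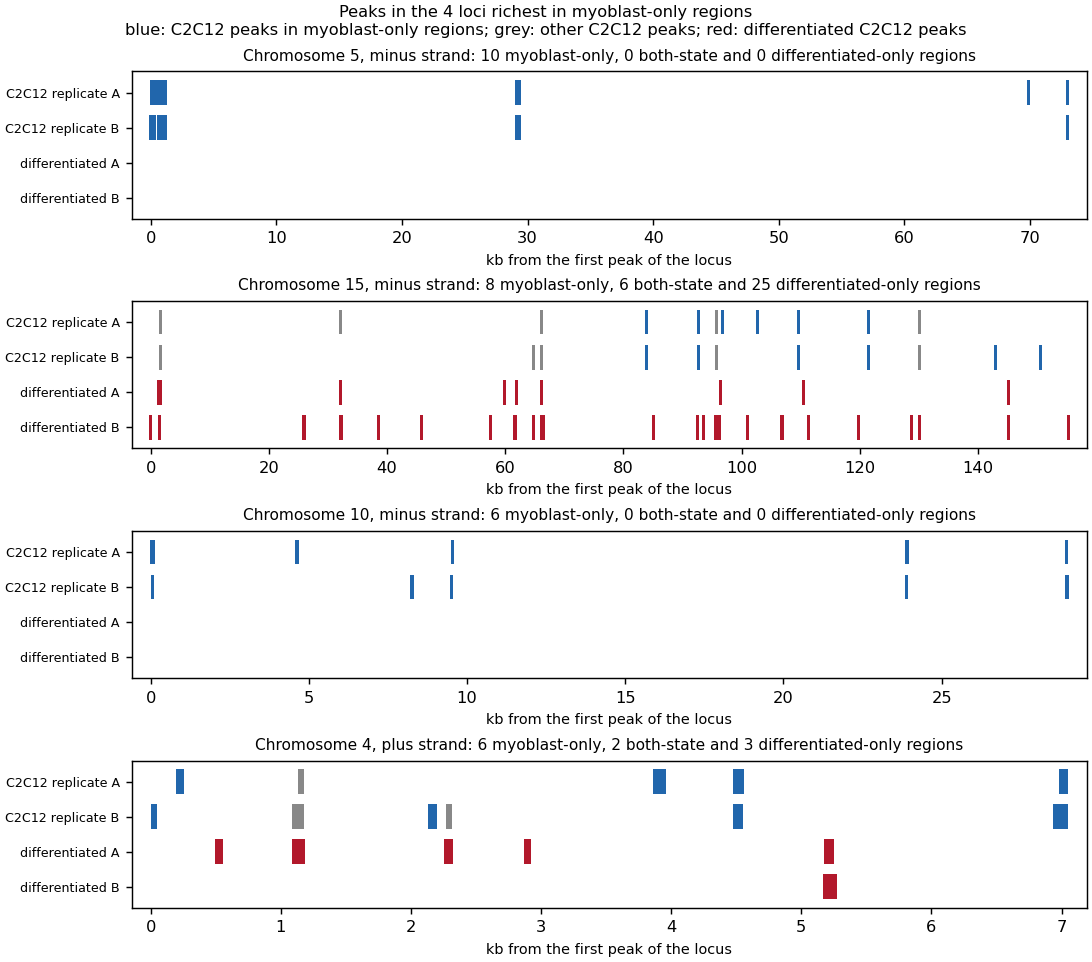
Peaks of the 4 libraries (rows) in the 4 loci with the most myoblast-only regions, against distance in kb from the first peak of each locus, with narrow peaks widened to stay visible. On chromosomes 5 and 10 only the C2C12 rows hold peaks (17 and 15, 7 and 6), and on chromosomes 15 and 4 C2C12 peaks (blue, myoblast-only; grey, other) lie among differentiated peaks (red).

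A smaller group on the minus strand of chromosome 15, chr15:79362928-79366018, held 3 regions, 2 of them in both replicates. Log2 fold enrichment there was 2.60 to 4.01, and the closest differentiated peak was 228 nt away. On the minus strand of chromosome 1, chr1:170317105-170347599 held 3 regions, of which chr1:170317105-170317204 was in both replicates (log2 fold enrichment 3.40 and 3.13). The nearest differentiated peak on that strand was 1557144 nt away.

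Distance to differentiated binding divided the members into near and far sites. Of the 124 regions, 9 lay within 100 nt of a differentiated peak on the same strand, 26 within 1 kb and 40 within 10 kb (32.3%, 95% Wilson interval 24.7 to 40.9). At the other end 77 regions (62.1%, 53.3 to 70.2) had no differentiated peak within 50 kb. The regions in both replicates had 67.7% (55.6 to 77.8) beyond 50 kb, and those in 1 replicate 55.9% (43.3 to 67.8). The intervals of these shares overlap. For comparison, 74.8% (71.3 to 77.9) of the differentiated-only regions lay over 50 kb from a C2C12 peak, in lists that hold fewer peaks to be near to.

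**Figure D4:**
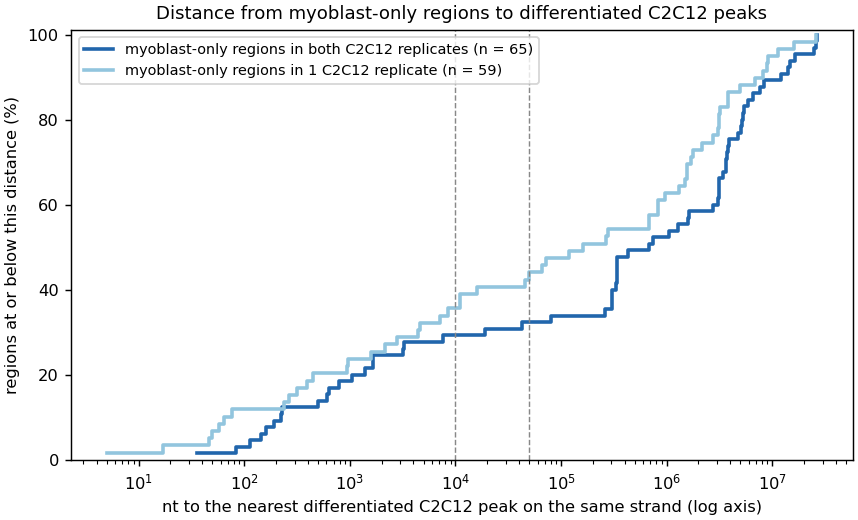
Cumulative share of myoblast-only regions (y axis, %) against the distance in nt to the nearest differentiated C2C12 peak on the same strand (x axis, log scale), for the 65 regions in both C2C12 replicates and the 59 in 1, with dashed lines at 10 and 50 kb. The curves reach 29.2% and 35.6% by 10 kb, and 67.7% and 55.9% of the regions lie beyond 50 kb.

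Far members had the higher medians. The 77 far regions had median log2 fold enrichments of 3.20 in A and 2.96 in B, and the 40 regions within 10 kb had 2.82 and 2.80. An enrichment of 4 or more on the log2 scale was reached by 33.9% and 29.0% of the far regions in the 2 lists and by 13.3% and 20.7% of the near ones. Peaks in both replicates were present at 57.1% of the far and 47.5% of the near regions, and median widths were 99.0 and 78.0 nt. The far regions include the chromosome 5 and 10 loci, with 9 of 10 and 4 of 6 members in both replicates. The near regions include the chromosome 15 and 4 loci, with 4 of 8 and 2 of 6. The contrast in the share in both replicates therefore leans on these 4 loci. The differences between far and near regions were not tested, since the regions share libraries. For 34 of the 40 near regions the closest differentiated peak belonged to a differentiated-only region, and for 6 it belonged to a region found in both states. Among all autosomal regions with a differentiated peak, 658 were differentiated-only and 84 were found in both states. The split among the near regions is close to that and says little about the members.

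The boundary of the rule was narrow at some sites. The members closest to a differentiated peak were chr15:95789730-95789821 on the plus strand, 5 nt away, and chr12:70755068-70755147 on the minus strand, 17 nt away, both in replicate A only. At chr16:38489248-38489422 on the plus strand, 36 nt away, peaks were in both replicates, with log2 fold enrichments of 4.37 and 4.35. Just outside the rule, chr1:73995370-73995501 on the minus strand was not a member because a C2C12 and a differentiated peak overlapped by 2 nt. At chr7:121258745-121259046 on the minus strand that overlap was 6 nt. By score, the weakest members were chr4:126704992-126705044 and chr8:111264202-111264376 on the plus strand, both with −log10 p of 5.00 in replicate B. Peaks below 5 are not in the lists.

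The median width of myoblast-only regions was 91.5 nt (quartiles 70.8 and 118, range 2 to 265), against 134 nt (98.2 and 178) for regions of both states and 106 nt (74.0 and 144) for differentiated-only regions. A region that merges peaks of more lists is wider by construction, and regions of both states held a median of 5.00 peaks against 2.00. Of the 124, 58 consisted of a single peak. The widest was chr7:88487768-88488032 on the minus strand, a single peak of 265 nt in replicate B. The narrowest, chr9:65044379-65044380 on the minus strand, covered 2 nt. Together the members covered 12078 nt of RNA-strand sequence.

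The strands were unevenly filled, in part through 3 loci. There were 77 on the minus and 47 on the plus strand (62.1% minus, 95% Wilson interval 53.3 to 70.2). Regions of both states had 42 of 84 on the minus strand, and the share was 52.3% (48.5 to 56.1) for differentiated-only regions. Over all 866 regions it was 53.5%. Without the chromosome 5, 10 and 15 loci of 6 or more members, all on the minus strand, 53 of the remaining 100 members (53.0%) were on that strand. Leaving out minus-strand loci lowers that share by construction, and the loci were singled out after their values had been seen. With the plus-strand chromosome 4 locus of 6 members left out too, the 53 stood among 94 members. No member was overlapped by a peak of any list on the opposite strand.

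By chromosome, 37 of the 124 members (29.8%) lay on chromosomes 15 and 5. Chromosome 15 held 20, of 84 autosomal regions there. Chromosome 5 held 17 of 35, so that 48.6% of its regions were myoblast-only against 14.3% over all autosomes, and 13 of the 17 were in both replicates. Its count rests largely on the single locus described above, which held 10 of the 17. Chromosome 10 followed with 11 of 38 and chromosome 4 with 10 of 56. On chromosome 3, by contrast, 3 of 56 regions were myoblast-only and none of these was in both replicates. Chromosome 18 had 0 myoblast-only regions among its 29.

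**Figure D5:**
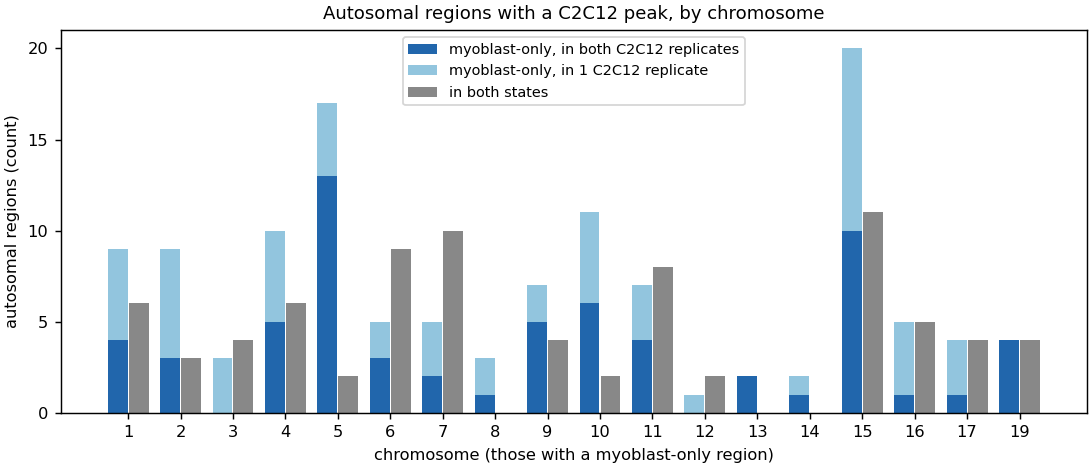
Number of autosomal regions (y axis) on each chromosome with a myoblast-only region (x axis), as stacked bars for myoblast-only regions in both (dark blue) or 1 (light blue) C2C12 replicate and grey bars for regions found in both states. Chromosomes 15 and 5 stand highest, with 20 and 17 myoblast-only regions, and on chromosome 5 only 2 regions were found in both states.

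Linking all 866 regions up to 10 kb apart by strand gave 500 stretches, and 91 of them held a myoblast-only region. In 68 of these stretches, with 84 of the members, no differentiated peak was present at all, and 37 of the 68 had a member in both replicates. The remaining 23 stretches held 40 members beside differentiated peaks. In 9 of these a region of both states was present, and in 14 the differentiated peaks lay only at other positions.

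The number of members depended on the score limit, as the count of 25 at the limit of 8 named in the methods shows. With at least 3 on the log2 scale of fold enrichment in all lists 77 regions qualified, 35 of them in both replicates. Absence from the differentiated lists means that no peak passed the limit there, which does not show that the RNA was unbound.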

How the data were processed

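HNRNPA2B1 eCLIP peak lists of 2 C2C12 and 2 differentiated C2C12 IP libraries were analysed; the input samples entered only through the authors' scores. Per the study's methods, reads were trimmed, filtered for repetitive elements, aligned to mm9 with STAR and cleared of PCR duplicates, and CLIPper peaks were identified separately for each replicate. For each peak the authors deposited the −log10 p of IP against size-matched input reads and the log2 fold enrichment. Deposited values begin at −log10 p of 5 and stop at 400, which hides weaker sites. The methods call peaks significant beyond −log10 p of 8 after Bonferroni correction. Whether the deposited p carries that correction is not clear, and read totals are not given in the sources used here, so depth is unknown, and deeper libraries could list weaker sites. Per the labels nuclei were isolated, while the methods describe lysis of whole cells.

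Positions are mm9, counted from 1. On GRCm38, the reference at hand, 6 of the autosomal peaks used would end beyond their chromosome. It was therefore not used for coordinates, and genes, annotation and sequences at the sites were not analysed here.

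Samples were grouped by their titles. Peaks of each strand were merged where they touched or overlapped, and bedtools 2.31.1 gave the same 866 and 124 regions. The rule classed 100% of 1000 regions of simulated lists correctly. The simulated peaks of a region always overlapped and regions lay far apart. This checks the code only and cannot show how the rule treats close or barely overlapping peaks. Regions named were the 10 best rank sums over both replicates, the 5 best of 1 replicate, extremes of peaks and width, both sides of the rule's boundary, and groups of 3 or more members linked up to 10 kb; regions at high or low log2 fold enrichment and the loci linked up to 50 kb were added after values had been seen. Members, rules and alternatives were chosen with earlier results of these data known. No test was run, since the rule used the presence of peaks and 2 libraries per state are too few; shares carry 95% Wilson intervals. Alternatives were limits on either score, other merging and linking distances, other distance windows, equal list lengths and leaving out each list. In a further alternative only a peak in both differentiated lists removed a region. The scripts ran in Python 3.11.15 with scipy 1.17.1, numpy 2.4.6 and, for plots, matplotlib 3.10.9.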

Additional observations from a re-analysis of the deposited data

How the results depend on the processing

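Counts of members stayed within 1.5 times of 124 under all alternatives but the score limits. Of 61 recomputed values, 37 stayed within the bound set for them. That bound was the factor of 1.5 for counts, which is no measured spread. For shares it was the Wilson interval, and for medians the SD between the C2C12 lists. With −log10 p of at least 8, the limit in the methods, 25 regions qualified, 10 in both replicates (40.0%), with a median width of 77.0 nt, a median log2 fold enrichment of 3.05 and 84.0% over 10 kb from a differentiated peak; 21 of the 25 held a peak of one of the 124. With log2 fold enrichment of at least 3 these were 77, 35, 45.5%, 83.0 nt, 3.83 and 90.9%. The main values were 124, 65, 52.4%, 91.5 nt, 2.95 and 67.7%. Merging peaks up to 100 nt apart gave a median enrichment of 2.98, and merging up to 1 kb gave 97.5 nt, 3.05 and 85.2%. Demanding an overlap of 1 nt gave 87.5 nt. When only a peak in both differentiated lists removed a region, 159 regions qualified, and 124 of them held a peak of a main member. Equal list lengths of 228 autosomal peaks gave 145 members, an enrichment of 2.91 and 82.8%, and a 1 kb window gave 79.0%. The 92 groups and single members became 109 when linked at 1 kb and 85 at 50 kb.

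Leaving out one list at a time gave 94 to 144 members, widths of 86.0 to 90.5 nt, enrichments of 2.88 to 2.99 and 67.0 to 76.4% isolated. Without either differentiated list 74 members were in both replicates (51.4 to 52.9%), which has no meaning without a C2C12 list. The cause of these shifts was not tested. Enrichment differed between the C2C12 lists by an SD of 0.03, so small shifts exceed it. No paired analysis was possible because a region has no value in a list that lacks it, no result here comes from a test, and the letters A and B are not stated to mark shared cultures or batches. Read depth limits every absence: a site missing from a list may be bound below its limit.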
